A study of Mus musculus with 5 samples.

Results

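The 10 genes described here encode receptors of the mouse tumour necrosis factor (TNF) receptor family. They are Tnfrsf23, Tnfrsf22, Tnfrsf26, Tnfrsf10b, Tnfrsf12a, Tnfrsf19, Tnfrsf21, Tnfrsf1a, Ngfr and Fas, and they were chosen by name out of 55573 genes in a table of RNA-seq read counts. The family was selected on these same libraries because Tnfrsf23 fell strongly after knockdown of Upf1, so the differences of the 10 genes between the groups are given as a description, with intervals and no p-values. Ngfr rose 2.30-fold in mean level, Tnfrsf23 fell to 22.8% and Tnfrsf22 to 35.1% of control, and the other receptors with enough reads moved by less.

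The cells were N2A (Neuro-2A), a mouse neuroblastoma line of neural crest type grown in medium with serum, and all libraries come from this 1 line. Control cells (siCtl) were transiently transfected with 60 pmol of the commercial non-targeting siRNA Silencer Negative Control #1, and knockdown cells (siUpf1) with 60 pmol of an siRNA against Upf1. The siCtl group had 2 libraries (numbered 1 and 3) and the siUpf1 group 3 (numbered 1 to 3), all made from poly(A)-selected RNA with a strand-specific kit. The question was which RNAs depend on UPF1, the RNA helicase needed for nonsense-mediated mRNA decay (NMD), a pathway that degrades mRNAs whose stop codon lies well upstream of an exon junction.

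The libraries held between 20402205 and 27717594 counts assigned to genes. The study describes blots of these siRNA-treated cells as coming from independent experiments, but the labels do not tie the library numbers to them. Every error below therefore measures the spread between these libraries, which may in part be technical. Upf1 itself was at 5217 and 5243 normalised counts in siCtl and at 2403, 2496 and 2449 in siUpf1, which was 46.8% of control (DESeq2 log2 fold change -1.10, SE 0.051, adjusted p = 7.09e-101). The markers of sympathetic neuroblasts and neurons listed for the check were all read in every library. Among them, Hand2, a transcription factor of sympathetic neurons, was at 6164 ± 223 normalised counts (SD, n = 2) in siCtl.

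TNF receptors are cell-surface proteins with cysteine-rich repeats outside the cell that bind trimeric ligands of the TNF family. Some carry an intracellular death domain that can recruit caspases through adaptor proteins, and others recruit TRAF proteins and turn on the transcription factor NF-kB. Decoy receptors bind a ligand without passing on a death signal. In the nervous system the family is best known through Ngfr, the p75 neurotrophin receptor, which responds to neurotrophins and takes part in survival, death and axon growth of neurons.

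Of the 10 genes, 7 had enough reads to be tested by DESeq2 and 3 did not, namely Tnfrsf10b, Tnfrsf19 and Tnfrsf21. At an adjusted p-value under 0.05, 1 of the 7 was called higher in siUpf1 (Ngfr) against a background of 22% of the 15191 tested genes. A further 4 were called lower (Tnfrsf23, Tnfrsf22, Tnfrsf12a and Tnfrsf1a) against a background of 22.9%, and for calls in either direction the background was 44.9%. The values of the 2 groups did not overlap for 6 of the 7, against 69.4% of all tested genes. The median log2 fold change of the 7 was -0.35 and that of all tested genes was -0.0024, while the median absolute change was 0.60 and 0.28. Since this same contrast chose the family, nothing is read from these counts.

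**Figure D1:**
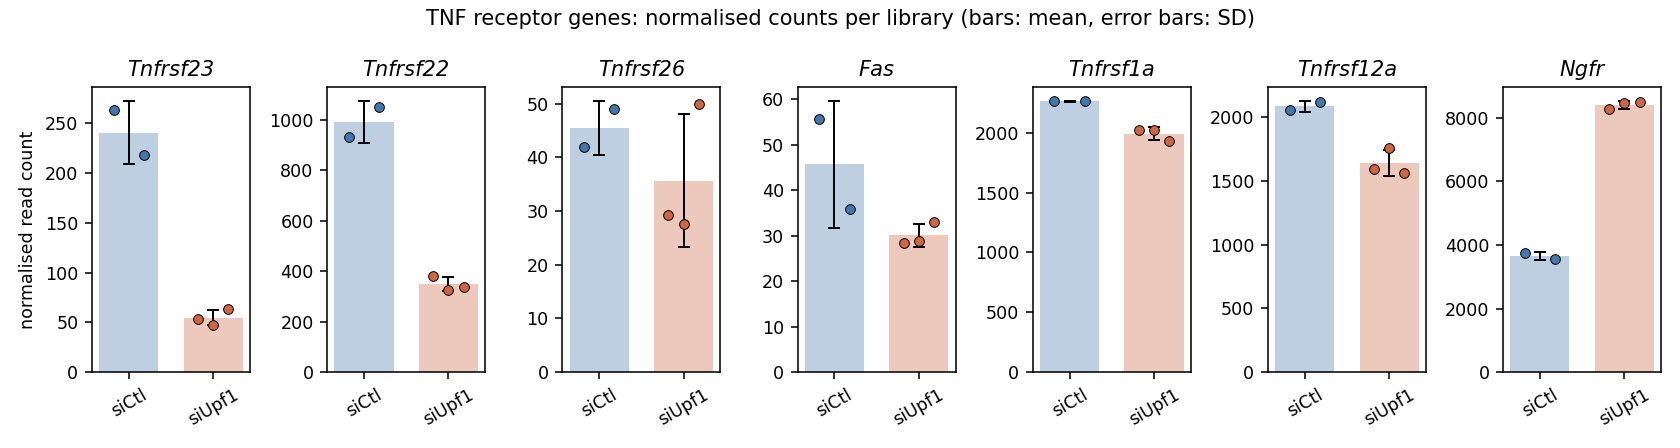
Normalised read counts of the 7 tested receptor genes, with a panel and a y axis of its own for each gene. Points are libraries, bars are group means and error bars are the SD (n = 2 for siCtl, n = 3 for siUpf1); the siUpf1 points lie below the siCtl points for Tnfrsf23 (54.8 against 240.5 on average) and Tnfrsf22, above them for Ngfr (8411 against 3653), and among them for Tnfrsf26.

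Tnfrsf23 encodes a mouse decoy receptor for TRAIL, a TNF-family ligand that can kill cells through receptors with a death domain. Its normalised read count was 263.1 and 217.9 in siCtl 1 and 3, and 53.4, 47.7 and 63.3 in siUpf1 1, 2 and 3. Every siUpf1 library was far below both siCtl libraries, and the siUpf1 libraries were close to each other. The group means were 240.5 ± 31.9 (SD, n = 2) and 54.8 ± 7.90 (SD, n = 3), a log2 fold change of -2.12 with a 95% interval of -2.56 to -1.68. Only 23 of the 15191 tested genes, Tnfrsf23 included, had a log2 fold change this low or lower. The raw counts behind these values were 251 and 231 in siCtl and 60, 38 and 71 in siUpf1. In bulk RNA, fewer cells that express the gene and less RNA per cell cannot be told apart.

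Tnfrsf22, the neighbouring gene, encodes the other mouse decoy receptor for TRAIL. Its normalised counts were 934 and 1052 in siCtl and 379.8, 326.3 and 338.7 in siUpf1. The groups were again well apart, at a level several times that of Tnfrsf23. The means were 993 ± 83.4 (SD, n = 2) and 348.3 ± 28.0 (SD, n = 3), a log2 fold change of -1.51 with a 95% interval of -1.72 to -1.30, and this interval overlapped a little with that of Tnfrsf23.

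Tnfrsf26, the third gene of this group, encodes a related receptor without a death domain. It was at 41.9 and 49.1 normalised counts in siCtl and at 29.4, 27.6 and 49.9 in siUpf1. The siUpf1 replicate 3 library was above both siCtl libraries and the other siUpf1 libraries were below them. Its log2 fold change of -0.34 had a 95% interval of -1.11 to 0.42, so at this depth neither a fall like that of Tnfrsf12a nor a small rise could be told from no difference.

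The genes Tnfrsf26, Tnfrsf22 and Tnfrsf23 lie side by side on the minus strand of chromosome 7 in the build GRCm38. Tnfrsf26 spans chr7:143607659-143628722, Tnfrsf22 spans chr7:143634806-143649661 and Tnfrsf23 spans chr7:143665809-143685872. Over 531 aligned coding bases, Tnfrsf22 and Tnfrsf23 were identical at 480, or 90.4%, whereas Tnfrsf26 matched Tnfrsf22 at 59.0% and Tnfrsf23 at 55.5%. Their longest identical coding stretch had 102 bases, shown here because a read from within it cannot be assigned to either gene. It starts at coding base 421 of Tnfrsf22 and 391 of Tnfrsf23 and runs over the end of exon 4, the whole of exon 5 and the start of exon 6 in both (Tnfrsf23: chr7:143670832-143670848, chr7:143669982-143670055 and chr7:143668582-143668592; Tnfrsf22: chr7:143640752-143640768, chr7:143639902-143639975 and chr7:143638426-143638436).
Shared stretch: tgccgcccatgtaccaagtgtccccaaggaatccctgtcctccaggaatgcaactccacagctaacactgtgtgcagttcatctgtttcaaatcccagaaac

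Such shared sequence was a small part of each gene. Of all 100-base windows of its annotated transcripts, Tnfrsf23 had 9.31% in common with another gene, which was Tnfrsf22 in each case. Most of these 377 windows did not lie within the coding stretch shown above. The share was 15.8% for Tnfrsf22, with Tnfrsf23 and a number of other loci, and 0.321% for Tnfrsf26. With the counts of the 3 genes summed, the level was 1239 and 1319 in siCtl and 462.5, 401.6 and 451.9 in siUpf1. Most of the sum came from Tnfrsf22 (993 of 1279 normalised counts on average in siCtl), so it is no check on Tnfrsf23 alone. Reads mapped to more than 1 place were not counted, and the sum does not bring them back. The summed level in siUpf1 was 34.3% of siCtl (log2 fold change -1.54, SE 0.095), with no overlap between the groups.

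The 2 annotated transcripts of Tnfrsf23 that have 6 exons differ in where they stop. They share their exons 1, 2, 3 and 5. In the longer, of 3353 nt and annotated as an NMD transcript, exon 4 begins 72 nt earlier (chr7:143670832-143671015) than in the protein-coding transcript of 1476 nt (chr7:143670832-143670943). The reading frame then ends within the added bases after 107 codons, and this stop lies 229 nt upstream of the last exon junction. In the protein-coding transcript it ends after 176 codons in the last exon. The last 30 coding bases of each are shown because they mark this difference, with the stop codon in capitals. The last 29 of the first sequence are at chr7:143670987-143671015 and its first base is the final base of exon 3, and the second is at chr7:143668543-143668572.
Tnfrsf23 NMD transcript: ggtgacagtggggtctgtgtgcatatgTAA
Tnfrsf23 protein-coding transcript: ctactgatgctaattgtcttctgtatcTGA

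The deposited counts were summed over all exons of a gene, so they did not tell these transcripts apart, and the fall of 2.12 on the log2 scale is that of their sum. An annotated NMD transcript was also present for Tnfrsf1a and for Fas, 1 each, and for none of the other 7 receptors. Among tested genes 28.4% had an annotated NMD transcript. In the representative coding transcript of each of the 10 receptors, no exon junction lay downstream of the stop codon. The representative coding regions had 420 bases in Tnfrsf12a, 531 in Tnfrsf23, 597 in Tnfrsf22, 615 in Tnfrsf26, 984 in Fas, 1284 in Ngfr and 1365 in Tnfrsf1a, and the median over tested genes was 1413. The Tnfrsf12a transcript used has 635 nt and no annotated 5′ untranslated region, and whether its coding region is complete was not checked. None of the 10 representative 3′ untranslated regions held the 7-base seed match of the guide strand of the Upf1 siRNA (GATAATT, found in 7.59% of 12302 such regions, same strand only) or that of its passenger strand (AACCTTG, 9.57%). Other annotated transcripts were not searched, among them the NMD transcript of Tnfrsf23, whose 3′ untranslated region has 3013 nt against 929.

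The receptors with a death domain did not move together. Ngfr was at 3751 and 3555 normalised counts in siCtl and at 8269, 8455 and 8508 in siUpf1. The siUpf1 libraries stood far above the siCtl libraries and close to each other. The means were 3653 ± 138 (SD, n = 2) and 8411 ± 125 (SD, n = 3), a log2 fold change of 1.20 with a 95% interval of 1.11 to 1.30, and 349 tested genes, Ngfr included, rose by as much or more. Ngfr lies on chromosome 11 (chr11:95568818-95587735, minus strand) and has 1 annotated transcript.

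Tnfrsf1a encodes the main TNF receptor, which carries a death domain and also turns on NF-kB. It was at 2266 and 2262 normalised counts in siCtl and at 2024, 2021 and 1927 in siUpf1. The siUpf1 libraries were all lower, but only slightly, at 87.9% of the siCtl mean (log2 fold change -0.19, 95% interval -0.31 to -0.07). Its call did not survive without either siCtl library (log2 fold change -0.19 both times) or without siUpf1 replicate 3 (-0.16).

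Fas, the classical death receptor of the immune system, was at 55.6 and 35.9 normalised counts in siCtl and at 28.5, 28.9 and 33.0 in siUpf1. The siCtl libraries differed from each other by more than the nearer of them differed from siUpf1. The log2 fold change was -0.60 with a 95% interval of -1.37 to 0.17, and Fas was not called although its groups did not overlap.

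Tnfrsf12a encodes Fn14, the receptor for the ligand TWEAK (Tnfsf12), and signals through TRAF proteins without a death domain. It was at 2055 and 2116 normalised counts in siCtl and at 1597, 1756 and 1565 in siUpf1. The highest siUpf1 library was still under the lowest siCtl library, and the group mean was 78.6% of control (log2 fold change -0.35, 95% interval -0.48 to -0.22).

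The 3 receptors that were not tested were close to absent. Tnfrsf10b, the mouse TRAIL receptor with a death domain, had 2 and 5 raw counts in siCtl and 4, 1 and 2 in siUpf1. Tnfrsf19 (TROY), known from neural progenitors, had 0 and 2 in siCtl and 1, 0 and 0 in siUpf1. Tnfrsf21 (death receptor 6), known from neurons, had 0 and 0 in siCtl and 0, 0 and 2 in siUpf1. At this depth a group difference in any of them was not detectable.

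To compare the receptors with each other, counts were scaled to library total (CPM) and to each kilobase of annotated exon. In siCtl the order was Tnfrsf12a (42.8 ± 1.24 CPM per kb, SD, n = 2), Ngfr (42.0 ± 1.25), Tnfrsf1a (34.6 ± 0.239), Tnfrsf22 (9.34 ± 0.860), Tnfrsf23 (2.41 ± 0.300), Fas (0.877 ± 0.261) and Tnfrsf26 (0.561 ± 0.0666). On this scale Tnfrsf12a and Ngfr did not differ beyond their spread in siCtl. Fas reached from 0.693 to 1.06 CPM per kb, just above Tnfrsf26 at 0.513 and 0.608. Tnfrsf10b was at most 0.0345 CPM per kb in any library, and Tnfrsf19 and Tnfrsf21 were lower still.

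In siUpf1 the order per kilobase changed at the top and in the middle. Ngfr was first at 98.1 ± 2.10 CPM per kb (SD, n = 3), followed by Tnfrsf12a at 34.1 ± 1.35, Tnfrsf1a at 30.9 ± 1.08 and Tnfrsf22 at 3.33 ± 0.347. Fas (0.587 ± 0.0531), Tnfrsf23 (0.557 ± 0.0883) and Tnfrsf26 (0.446 ± 0.159) then lay within their spread of each other. Scaling to the longest transcript raised the level of Tnfrsf12a to 84.0 and 66.9 CPM per kb in siCtl and siUpf1 and left every rank of the 10 genes as it was. With that length Tnfrsf12a lay well above Ngfr in siCtl (84.0 ± 2.4 against 42.0 ± 1.25). The near equality of these 2 genes in siCtl thus depends on the length used.

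**Figure D2:**
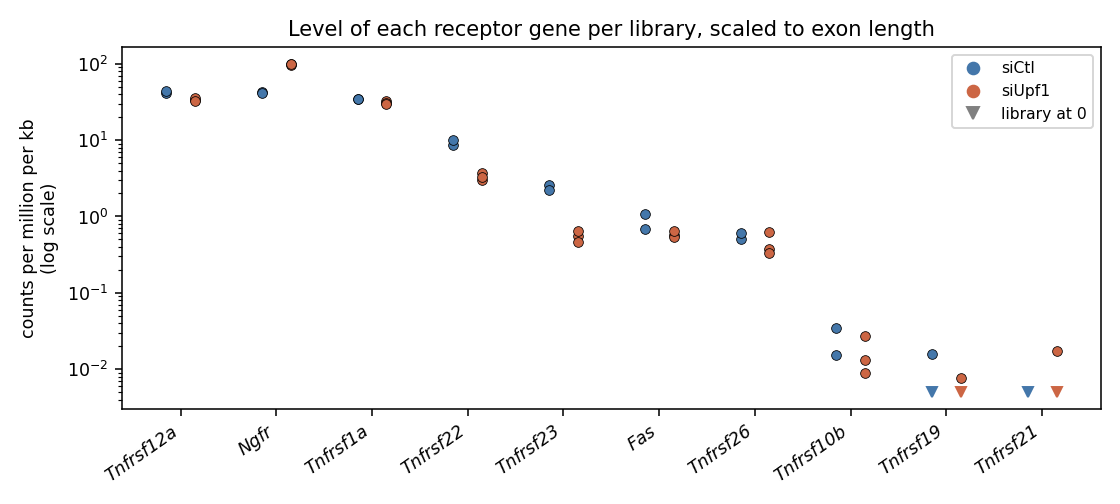
Level of each of the 10 receptor genes in every library, in CPM per kb of exon on a log axis, ordered by the siCtl mean. Blue points are siCtl and orange points siUpf1, and triangles at the bottom mark genes with a library at 0; Tnfrsf12a, Ngfr and Tnfrsf1a stand above 30 in every library, and Tnfrsf10b, Tnfrsf19 and Tnfrsf21 below 0.035.

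The tested genes with the most similar profile to Tnfrsf23 were sought by the distance of centred log2 normalised counts over the 5 libraries, among 10962 genes with a mean of at least 100. They were Stx3, a syntaxin of membrane fusion (distance 0.404), Osgin1, an oxidative stress-induced gene (0.449), Snrpa1, a component of the U2 snRNP (0.513), Spint1, a serine protease inhibitor (0.556), and Cd82, a tetraspanin (0.557). Their log2 fold changes were between -2.03 and -1.71, and Tnfrsf22 had rank 25 at a distance of 0.799. The measure decides this list, since the 5 genes with the highest Pearson r over the same 5 libraries shared 0 genes with it and 1874 genes had r over 0.95.

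The rest of the family had 20 listed receptors, of which 11 were tested, 3 were called higher and 2 lower, with a median log2 fold change of -0.09. A call rate of 5 in 11 is close to the 44.9% of all tested genes. Rell1, a homologue of the receptor RELT, was at 584.9 and 608.5 normalised counts in siCtl and between 975.2 and 980.1 in siUpf1 (DESeq2 log2 fold change 0.71, SE 0.088, adjusted p = 8.20e-15). Relt rose by 0.37 (adjusted p = 0.000764) and Ltbr, the lymphotoxin beta receptor, by 0.33 (adjusted p = 5.23e-06, DESeq2). Tnfrsf9, the costimulatory receptor 4-1BB, was at 120.5 and 104.7 in siCtl and at 71.2, 52.7 and 60.6 in siUpf1 (DESeq2 log2 fold change -0.86, SE 0.262, adjusted p = 0.00308). Cd40 fell by 0.39 on the log2 scale (DESeq2 adjusted p = 0.0125), with 385.8 and 381.1 normalised counts in siCtl and 263.3, 333.8 and 282.6 in siUpf1. The call of Cd40 was lost in each fit without siCtl replicate 1 or 3 or siUpf1 replicate 1 or 3. That of Tnfrsf9 was lost without siCtl replicate 1, where fewer receptors of this list and fewer genes in all were called.

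The receptors of this list that were tested and not called were Tnfrsf4, Tnfrsf13b, Tnfrsf13c, Tnfrsf14, Tnfrsf25 and Rell2. Their log2 fold changes ran from -1.61 for Tnfrsf14, which had a mean of 14.7 normalised counts in siCtl and 4.69 in siUpf1, to 0.48 for Tnfrsf13c. The remaining 9 receptors of the list were not tested, and 3 of them had no read in any library.

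**Figure D3:**
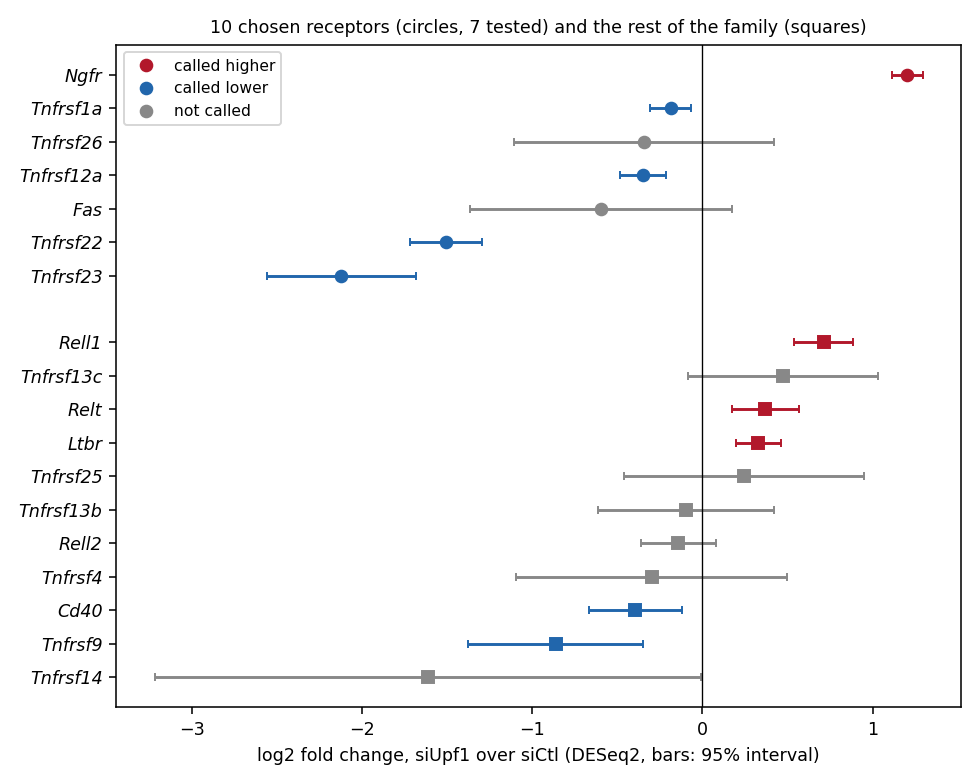
Log2 fold change, siUpf1 over siCtl, of the 7 tested receptors described above (circles) and the 11 tested receptors of the rest of the family (squares), with bars for the 95% interval from DESeq2. Red marks genes called higher, blue genes called lower and grey genes not called; Tnfrsf23 at -2.12 lies lowest and Ngfr at 1.20 highest of the called genes, and the grey intervals of the weakly expressed receptors are wide.

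Most ligands of the family had few or no reads in these cells. Of 22 listed ligands of the TNF and neurotrophin families, 14 had no more than 3 counts in any library and 7 had none at all. Only 4 were tested and 0 were called by DESeq2, against 44.9% of all tested genes. A list of 4 tested genes is too short to be told from that share. Tnfsf10 (TRAIL), the ligand of the decoy receptors, had 7 and 9 raw counts in siCtl and 4, 4 and 6 in siUpf1. Of the ligands of the p75 receptor, Bdnf had 5 and 6 in siCtl and 13, 4 and 2 in siUpf1, Ntf3 had 1 count in siUpf1 replicate 1 alone, and Lta had at most 3 in a library. Tnf had 3 and 6 counts in siCtl and 0, 0 and 1 in siUpf1, too few for a test.

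The listed ligand with the most reads was Tnfsf13b (BAFF), a B-cell survival factor chosen after its values were seen, at 201.3 and 242.5 normalised counts in siCtl and 266.8, 283.6 and 271.9 in siUpf1. Its groups did not overlap, and its log2 fold change of 0.30 (SE 0.154) was not called (DESeq2 adjusted p = 0.101). Among the other tested ligands, Tnfsf12 (TWEAK), which binds the product of Tnfrsf12a, was at 39.8 and 36.8 normalised counts in siCtl and at 24.0, 23.9 and 25.9 in siUpf1. The groups did not overlap, with a log2 fold change of -0.64 (SE 0.416) that DESeq2 did not call (adjusted p = 0.215) and edgeR did (adjusted p = 0.0438). Fasl was at 27.3 and 9.43 in siCtl and at 13.3 to 16.1 in siUpf1, and Ntf5 was at 53.5 and 37.7 in siCtl and at 30.2 to 49.0 in siUpf1. For both the groups overlapped.

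Downstream of the receptors, 29 of 31 listed adaptors and death enzymes were tested, 4 were called higher, 9 lower and 16 not called, with a median log2 fold change of -0.17. These 13 calls are close to the share over all tested genes (22% higher and 22.9% lower, 44.9% in all). Without siCtl replicate 3 fewer genes of this list were called, and fewer were called over all genes too. Ripk1, the kinase recruited by Tnfrsf1a, was at 730.6 and 722.7 normalised counts in siCtl and at 339.7, 372.8 and 378 in siUpf1. Every siUpf1 library was well under both siCtl libraries (DESeq2 log2 fold change -1.001, SE 0.109, adjusted p = 7.93e-19). Mlkl, the effector of necroptosis, fell by 0.58 on the log2 scale, from 2080 ± 24.2 (n = 2) to 1392 ± 10.3 (n = 3, DESeq2 adjusted p = 4.03e-18). Cyld, a deubiquitinase that restrains NF-kB, rose by 0.73 (422.6 ± 1.25 to 700.8 ± 36.5, DESeq2 adjusted p = 2.83e-11). Ripk3, the kinase that activates Mlkl, had no read in any library (chosen after its values were seen).

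The IKK kinases and NF-kB subunits split evenly. All 13 were tested, 4 were called higher and 4 lower, and the median log2 fold change was 0.05. Over all tested genes 22% were called higher and 22.9% lower. Without siCtl replicate 3 this list had fewer calls, as did all genes together. The genes called lower were Rela (-0.53, SE 0.074, DESeq2 adjusted p = 9.69e-12), Relb (-0.51, SE 0.149, adjusted p = 0.00193) and Nfkb2 (-0.44, SE 0.086, adjusted p = 1.99e-06), which encode NF-kB subunits, and Map3k14 (-0.44, SE 0.144, adjusted p = 0.00732), which encodes the kinase NIK. The call of Relb was lost without siCtl replicate 3 and that of Map3k14 without siCtl replicate 1. Those called higher, Tab1, Map3k7, Ikbkg and Ikbkb, encode kinase complex members and changed by 0.15 to 0.36 (chosen after their values were seen).

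Genes known as targets of NF-kB went in both directions, with 19 of 20 tested, 3 called higher, 8 lower and 8 not called, and a median log2 fold change of -0.46. Over all tested genes 22% were called higher and 22.9% lower, and the median was -0.0024. The chemokine Cxcl10 was at 624.8 and 564.2 normalised counts in siCtl and at 208.1, 209.6 and 238.9 in siUpf1 (DESeq2 log2 fold change -1.44, SE 0.131, adjusted p = 1.40e-26). Tnfaip2, a TNF-induced gene, fell by 1.24 (DESeq2 adjusted p = 1.55e-29). The chemokine Cxcl1 rose by 0.99 (DESeq2 adjusted p = 1.79e-05) and the cytokine Il6 by 0.85 (adjusted p = 1.02e-06, DESeq2). The gene with the largest fall of the list was the chemokine Ccl5, from 133.4 ± 9.93 (n = 2) to 18.6 ± 1.63 (n = 3), or -2.84 on the log2 scale (DESeq2, SE 0.323, adjusted p = 2.51e-17), which was chosen after its values were seen.

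Of the partners of the p75 receptor, 12 were tested, 4 were called higher, 2 lower and 6 not called, with a median log2 fold change of 0.08. Calls in either direction made up 44.9% of all tested genes. Sort1, encoding sortilin, the co-receptor for proneurotrophins, rose with Ngfr from 2936 and 2766 normalised counts in siCtl to 5324, 5352 and 5381 in siUpf1 (DESeq2 log2 fold change 0.91, SE 0.050, adjusted p = 5.04e-71). Ntrk3, the receptor for neurotrophin-3, rose by 0.66 (DESeq2 adjusted p = 3.55e-17) and Lingo1, a co-receptor in inhibition of axon growth, by 0.58 (DESeq2 adjusted p = 5.62e-08). Rhoa, the small GTPase that p75 can activate, fell by 0.40 (DESeq2 adjusted p = 8.81e-16).

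Most listed markers of sympathetic neuroblasts and neurons were higher in siUpf1, as Ngfr and Sort1 were. They include Elavl4 (218.7% of control), whose mRNA the study counts among NMD targets. Of 14 such markers, all tested, 10 were called higher (22% of all tested genes were), 1 was called lower (Stmn2, log2 fold change -0.16) and 3 were not called (Th, Chga and Tubb3). Their summed level ran from 49490 to 49920 normalised counts in siCtl and from 58050 to 61790 in siUpf1. Their part in the rise of Ngfr was not tested. Markers of endothelium and fibroblasts, summed, fell from between 273.6 and 277.4 to between 225 and 234.7 and from between 287.7 and 306.1 to between 223.4 and 257.6, mainly through Pecam1 and Pdgfra. Tek, also endothelial, was called higher (56.8 to 94.1 normalised counts on average), and Kdr and Lum had no read in any library. The summed glial markers were at 475.9 to 507.6 in siCtl and 529.5 to 561 in siUpf1, mainly through Mbp, with Aqp4 at no more than 2 counts in a library. The leukocyte and epithelial marker sums overlapped between the groups and reached 60.2 normalised counts at most, with Itgam and Epcam at no more than 1 count in a library. The part of these markers in the changes of the receptors was not tested.

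**Figure D4:**
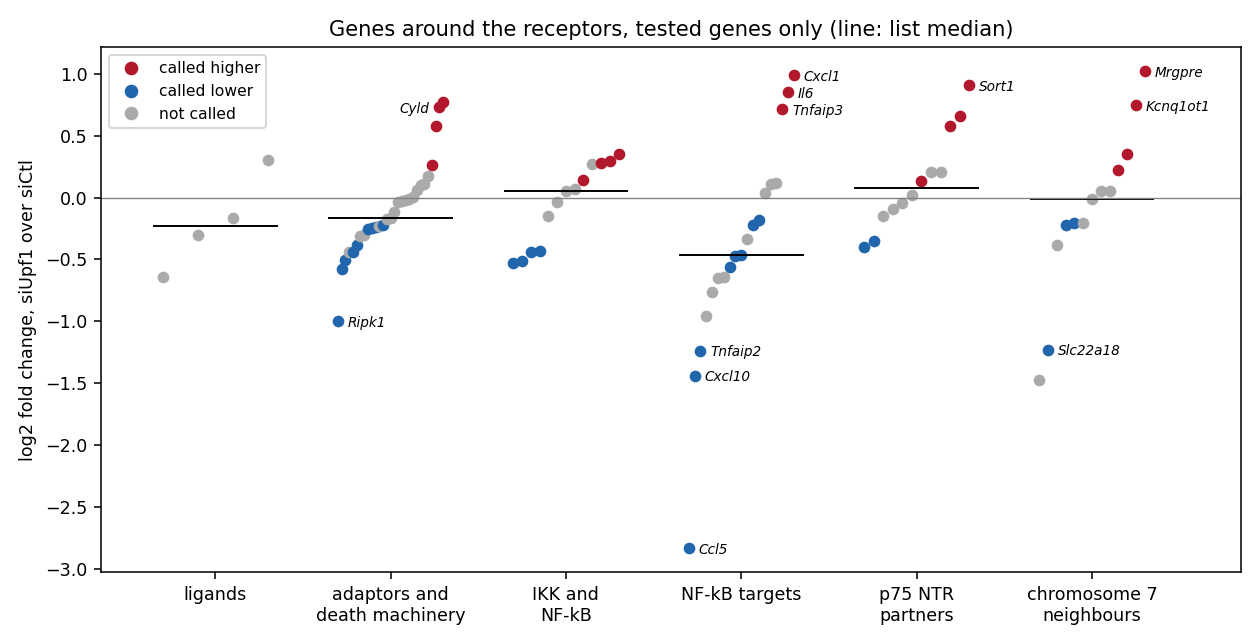
Log2 fold change, siUpf1 over siCtl, of every tested gene of 6 lists around the receptors, sorted within each list, with a line at the list's median. Red points were called higher, blue lower and grey not called by DESeq2, and most called genes beyond 0.7 are named; each list except the ligands holds genes called in both directions, from Ccl5 at -2.84 to Mrgpre at 1.02.

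The genes around the receptor cluster on chromosome 7 were examined to see whether their level followed that of Tnfrsf22 and Tnfrsf23. Of 17 such genes found, 13 were tested, 4 were called higher and 3 lower, and the median log2 fold change was -0.01, against 22% called higher, 22.9% called lower and a median of -0.0024 over all tested genes. Slc22a18, a membrane transporter, fell by 1.23 (SE 0.424, DESeq2 adjusted p = 0.0103) from a low level, 43.0 and 60.4 normalised counts in siCtl and 24.0, 28.9 and 14.3 in siUpf1. Mrgpre, an orphan receptor of sensory neurons, rose by 1.02 (SE 0.176, DESeq2 adjusted p = 4.23e-08), and Kcnq1ot1, an imprinted long non-coding RNA, by 0.74 (SE 0.265, DESeq2 adjusted p = 0.0131). The call of Kcnq1ot1 was lost when either siCtl library was left out and that of Slc22a18 without siUpf1 replicate 3.

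The other neighbours changed less. Osbpl5 rose by 0.35 and Tssc4 by 0.22, and Cars and Cd81 fell by 0.22 and 0.21 on the log2 scale. The call of Tssc4 was lost in 3 of the fits that left out a library. Nap1l4, Phlda2, Cdkn1c, Ascl2, Dhcr7 and Nadsyn1 were not called. The antisense gene E230032D23Rik, chosen after its values were seen, lies on the opposite strand, from the start of Tnfrsf26 across Tnfrsf22 and into Tnfrsf23 (chr7:143628024-143670614, plus strand), and had between 1 and 4 counts per library. The authors' counting used strand.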

How the data were processed

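The authors deposited raw read counts per gene, not normalised and not pooled. Per the study's methods and processing notes, single-end reads were trimmed with fastp, mapped to GRCm38.p6 with STAR (2.7.0f in the notes) and summed per gene from exonic reads of the reverse strand by featureCounts (Subread 1.6.4), without the option to count multi-mapped reads. All 5 libraries were used, grouped by their labels. Over these, siUpf1 was compared with siCtl by DESeq2's Wald test (1.42.0, R 4.3.3), as the study did, with group as the only term, Benjamini-Hochberg adjustment over all tested genes and calls at an adjusted p under 0.05. Normalised counts were divided by DESeq2's size factors. A gene without an adjusted p was counted as not tested. Alternatives were edgeR (4.0.16, quasi-likelihood), TMM or total-count scaling, a filter of 10 counts in 2 or more libraries, no independent filtering, the replicate number as a block, each library left out and, where they applied, the 3 paralogs summed, the longest transcript and Pearson r. The scripts were tested on simulated data.

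Positions and transcripts came from GENCODE M21 of the same build, in which 99.7% of the identifiers were found, and coding sequences were aligned with Biopython 1.88. The genes and lists were chosen with earlier results of these data known. Genes named were the 10 receptors, Upf1, tested members of the rest of the family, ligands of the receptors, tested neighbours, the 5 genes nearest to Tnfrsf23 and, from the other lists, up to 4 called genes with the largest change and a mean of at least 100. Some genes under this rule are not reported here. With 2 libraries against 3, the number of libraries limits precision, and counts without molecular identifiers understate counting error.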

Additional observations from a re-analysis of the deposited data

How the results depend on the processing

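Over 55 named genes and up to 11 alternatives each (604 values), 564 kept their direction and their side of the threshold, 28 lost the call, 3 gained it (Tnfrsf14, Tnfsf12 and Phlda2, each under edgeR) and 9 changed sign. Over the alternatives, the log2 fold change ran from -2.26 to -1.99 for Tnfrsf23 and from -1.60 to -1.42 for Tnfrsf22. The range was -0.40 to -0.32 for Tnfrsf12a, 1.16 to 1.24 for Ngfr and -1.11 to -1.07 for Upf1. Tnfrsf26 (-0.67 to -0.20) and Fas (-0.88 to -0.25) were not called in the main fit. Since the same contrast chose the family, the ranges of its members are a description only. Each gene that changed sign was uncalled and near zero or at low counts. With total counts Nadsyn1 was at 0.010. With 1 library left out, Nadsyn1 ran from -0.12 to 0.094, Ascl2 from -0.56 to 0.29, Fasl from -0.88 to 0.65, Ntf5 from -0.40 to 0.11, Tnfrsf13b from -0.21 to 0.014 and Tnfrsf4 from -0.62 to 0.12. Those fits called no more genes than the full fit in the rest of the family (5 with all libraries). The same held for adaptors and death enzymes (13) and for IKK and NF-kB genes (8). Over all genes, each of those fits called fewer than the full fit. A fit with 1 siCtl library assumes that it varies like siUpf1, and the main fit estimates 1 spread over both groups. The chi-square per degree of freedom between the raw counts of 2 libraries was 5.22 for the siCtl pair. For the siUpf1 pairs it was 21.1 (1 and 2), 8.41 (1 and 3) and 7.54 (2 and 3). edgeR called 2 ligands, where DESeq2 called 0. Over all genes edgeR called 4220 higher and 4172 lower of 15368 tested, and DESeq2 3341 and 3481 of 15191.

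With the replicate number as a block, calls fell to 2 in the rest of the family, 7 among adaptors and death enzymes, 4 among IKK and NF-kB genes and 3 among the neighbours (7 without it), and Tnfrsf1a, Relt, Tnfrsf9 and Cd40 lost theirs. Over all genes 1957 were called higher and 1962 lower with the block, against 3341 and 3481 without it. Deviations from the group means of same-numbered libraries correlated at -0.10 (number 1) and -0.11 (number 3). Both values rest on the same difference between the 2 siCtl libraries, so they cannot settle whether the numbers pair the libraries. The labels do not state a pairing, so the block was kept as an alternative only. The number 2 occurs only in siUpf1, so with the block siUpf1 replicate 2 adds nothing to the estimated group difference. The block also costs residual degrees of freedom. Leaving out a siCtl library gave 2393 to 2437 genes higher and 2374 to 2484 lower. The cause of these changes was otherwise not tested. Depth limits the receptors under about 50 counts, Tnfrsf26 and Fas among them, whose 95% intervals span more than a doubling.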
